A study of Mus musculus with 2 samples.

Results

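The apolipoprotein L (Apol) genes were measured in mouse spleen on 2 one-colour Agilent arrays, 1 for Loxl3+/+ (wild-type) spleen RNA and 1 for spleen RNA whose label is Loxl3-/- (knockout). The 10 genes described here, Apol6, Apol7a, Apol7b, Apol7c, Apol8, Apol9a, Apol9b, Apol10a, Apol10b and Apol11b, were taken by symbol through the RefSeq accession of each probe. Of them 9 had a probe, 12 probes in all, among 39420 probes and 20655 named genes, and 7 were well above background by the scanner software's call on at least 1 array, among 13716 such genes. No probe matched Apol8. Both groups were untreated, healthy males whose spleens were used fresh. Strain, age and whether RNA of several animals was pooled are not given in the sources used here.

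Apolipoprotein L proteins are named after a lipoprotein component of human plasma, but most family members lack a secretion signal and act inside cells, where they associate with membranes. The family is best known from human APOL1, a pore-forming protein that lyses trypanosomes. Several members are induced by interferons, and in the mouse Apol9a and Apol9b have been described as interferon-induced inhibitors of a picornavirus. In the mouse the genes lie as a cluster of closely related copies, and in the reference assembly GRCm38.p6 all 10 members are on chromosome 15.

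Each group had 1 array, so the values have no replicate check and no p-value was computed. The members were chosen from this same comparison, so their values are a description of these 2 arrays. Each array's 75th percentile signal, 974 for wild type and 1400.0 for the labelled knockout, was subtracted on the log2 scale, and a difference is the labelled knockout minus wild type. That scaling lowers an unscaled knockout-to-wild-type ratio by 0.52. Errors after ± come from the scanner software's error for each spot and leave out any spread between animals. Signals are background-corrected intensities before scaling. The Loxl3 probe read 117 for wild type and 125 for the labelled knockout, a difference of -0.43 ± 0.29. The sources used here do not say whether this probe falls in the deleted stretch, so the array is called labelled-knockout.

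Of the 7 measured Apol genes, 6 were lower on the labelled-knockout array after scaling and Apol7c alone was higher. These directions held under all alternative scalings tried. Before scaling, Apol7b also read higher on the labelled-knockout array, with a log2 ratio of 0.24. Apol11b was at a difference of -2.001. Apol10a, too dim in the labelled knockout for an exact value, was lower there by a nominal bound of 3.98-fold, which leaves out spot error. Apol9b, Apol10b, Apol9a and Apol7b were lower by smaller amounts, from -0.93 to -0.29, and Apol7c was at 0.70. The median of the 7 genes was -0.89, the same with Apol10a held at its bound, against -0.09 for all measured genes. At least 2-fold lower were 2 of the 7, where 2.26% of all measured genes were, and none of the 7 was at least 2-fold higher, where 2.57% of all genes were (4.83% either way). Among all measured genes 59.2% were below 0. Because the genes were chosen from this comparison, nothing is read from these counts.

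**Figure D1:**
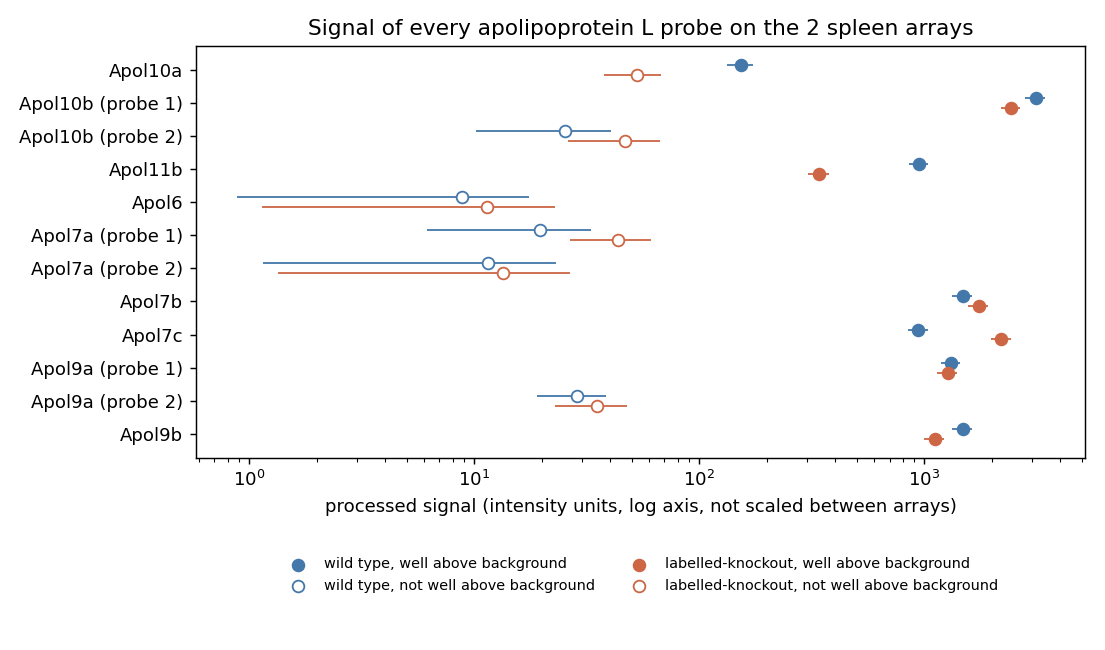
Processed signal of each of the 12 Apol probes on the wild-type array (blue) and the labelled-knockout array (orange), on a log axis and before scaling between arrays. Bars are the scanner software's error of the spot, with lower bars that would reach 0 shortened, and open circles mark signals not well above background. Apol11b and Apol10a read lower on the labelled-knockout array and Apol7c higher, while 5 probes stayed near background on both arrays.

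Apol11b had the largest difference among members above background on both arrays. Its probe read 946 ± 95.2 in wild type and 339.7 ± 36.1 in the labelled knockout. The scaled difference was -2.001 ± 0.21, or 4.003 times lower. Among the 13034 genes above background on both arrays, 0.161% had a lower value. That rank is a description, because the gene was chosen from this comparison. Genes within 0.5 log2 units of its mean signal had a median of 0.02, with a 5th percentile of -0.75.

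Apol10a, another gene of the cluster, read 153 ± 20.1 in wild type and 52.7 ± 14.9 in the labelled knockout. The second signal was not well above background, where the lowest signal called so was 55.2. The gene read higher in wild type by a nominal bound of 3.98-fold, from the scaled wild-type signal over that lowest signal, scaled likewise. This bound leaves out spot error, and some brighter labelled-knockout signals, such as those of Acoxl and 1700081H04Rik, were not called well above background. The true difference may therefore be smaller than the bound. With normexp background correction, which adds a fixed offset and pulls dim signals together, the difference was -1.09 and that of Apol11b was -1.69.

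Apol10a and Apol11b also had similar promoters. Over 300 bases around the annotated start (250 before, 50 after) their RefSeq sequences were 89.0% identical in a global alignment. The stretch from 100 bases before to 10 bases after the start is shown for both, 5′ to 3′ on the gene's strand, because the 2 members at least 2-fold lower have it in common. Apol10a lies on the plus strand at chr15:77476947-77477056 and Apol11b on the minus strand at chr15:77643277-77643386 (GRCm38.p6). Capitals mark a match, on either strand, to GAAA followed by any 2 bases and GAAA, the core of the interferon-stimulated response element (ISRE) that interferon-activated factors bind.
Apol10a: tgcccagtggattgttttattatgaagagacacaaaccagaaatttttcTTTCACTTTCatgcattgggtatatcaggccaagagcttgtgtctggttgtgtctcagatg
Apol11b: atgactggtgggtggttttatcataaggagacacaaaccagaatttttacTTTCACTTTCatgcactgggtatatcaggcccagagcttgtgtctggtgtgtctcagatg
The match, TTTCACTTTC, began at position -51 from the start in Apol10a and at -50 in Apol11b. Both promoters also held 1 match to TTCNNNGAA, the gamma-activated site (GAS) that STAT dimers bind, beginning at position -241. The Apol11a promoter was 99.3% identical to that of Apol11b, but no probe matched Apol11a. How far the Apol11b probe also reads Apol10a or Apol11a RNA was not tested, since no probe sequence was used here.

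Apol9b, one of the interferon-induced antiviral pair, read 1479 ± 148 in wild type and 1114 ± 112 in the labelled knockout. After scaling it was 1.91 times lower, at -0.93 ± 0.21, with an unscaled log2 ratio of -0.41. Genes of like signal had a 5th percentile of -0.65. Its partner Apol9a read 1315 ± 132 and 1269.7 ± 127, nearly the same signal on both arrays. Its scaled difference of -0.57 ± 0.20 therefore came mainly from the scaling, with an unscaled log2 ratio of -0.05. Genes of like signal had a 5th percentile of -0.65, so Apol9a lay within that range. A second Apol9a probe read 28.7 and 35.2, neither of them well above background, so the gene's value rests on 1 probe. The differences of Apol9a and Apol9b were 0.36 ± 0.29 apart, within 2 errors of each other.

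The Apol9a and Apol9b promoters shared an unbroken run of 278 bases of the 300, so they are shown together with the matches in capitals. Apol9a lies on the minus strand at chr15:77411071-77411180 and Apol9b on the plus strand at chr15:77728972-77729081 (GRCm38.p6). RefSeq gives each gene 2 starts, and the farther upstream is used.
Apol9a: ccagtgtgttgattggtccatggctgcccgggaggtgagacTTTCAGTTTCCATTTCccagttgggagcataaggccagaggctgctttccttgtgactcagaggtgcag
Apol9b: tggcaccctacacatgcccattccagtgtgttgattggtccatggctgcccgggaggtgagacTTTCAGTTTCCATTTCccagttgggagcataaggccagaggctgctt
Each held 2 overlapping ISRE core matches, TTTCAGTTTC and TTTCCATTTC, the first beginning at position -59 in Apol9a and -37 in Apol9b. The genes are close copies of each other, so their probes may share signal.

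Apol10b, the remaining member of the Apol10 group with a probe, read 3127 ± 313 in wild type and 2429.8 ± 243 in the labelled knockout. It was 1.85 times lower after scaling, at -0.89 ± 0.20, where genes of like signal had a 5th percentile of -0.72. The unscaled log2 ratio was -0.36, so much of that difference came from the scaling. Its second probe read 25.3 and 46.5, neither of them well above background. The Apol10b promoter was 47.9% identical to that of Apol10a and 47.4% to that of Apol11b, and its ISRE core match spans the annotated start, from position -4 to position 6. It lies on the minus strand at chr15:77596116-77596225 (GRCm38.p6), shown with the match in capitals because the match lies apart from the others.
Apol10b: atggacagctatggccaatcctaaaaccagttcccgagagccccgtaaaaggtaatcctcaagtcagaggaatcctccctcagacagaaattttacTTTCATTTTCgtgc

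Apol7c was the only measured member higher on the labelled-knockout array. It encodes a protein described in cross-presenting dendritic cells, where it inserts into the membrane of phagosomes. Its probe read 939 ± 94.9 in wild type and 2197 ± 220.4 in the labelled knockout. The scaled difference was 0.70 ± 0.21, or 1.63 times higher, and 4.40% of genes above background on both arrays had a higher value. Genes of like signal had a 95th percentile of 0.57. On the same array pair, 12 of the 13 listed dendritic cell markers had a probe and were measured, 6 above 0 and 6 below. The 11 above background on both arrays ranged from -0.58 (Siglech) to 0.92 (Itgax) by their brightest probes. Another Siglech probe was at 0.18, and another probe of Cd209a, itself at 0.73, was at 1.26. The summed signal of all 12 went from 115515 to 131622 before scaling. After scaling the sum was 0.793 times that of wild type, against 0.80 times for all measured genes. Most of the wild-type sum came from Siglech (53421) and Wdfy4 (43662). For Xcr1, a marker of the cross-presenting subset, only the wild-type signal was above background, higher than the other by a nominal bound of 7.08-fold. Other markers linked to that subset were nearer to 0, with Clec9a at -0.19, Wdfy4 at -0.37, Naaa at 0.01 and Batf3 at 0.18. The part of dendritic cell number in the Apol7c value was not tested, and fewer cells of a type and less RNA per cell cannot be told apart in whole spleen.

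Apol7b, the closest measured relative of Apol7c by promoter, did not share its direction. Its probe read 1481 ± 149 in wild type and 1745 ± 175 in the labelled knockout. The scaled difference was -0.29 ± 0.20, while the unscaled log2 ratio was 0.24, so the gene was lower only after scaling between arrays. Genes of like signal had a median of -0.07 and a 5th percentile of -0.65, so Apol7b lay within that range. The difference between Apol7c and Apol7b, which subtracting a constant from each array does not touch, was 0.99 ± 0.29. The promoters of the pair were 71.3% identical and are shown together because they differ at the motif. Both lie on the minus strand, Apol7c at chr15:77533306-77533415 and Apol7b at chr15:77447451-77447560 (GRCm38.p6).
Apol7c: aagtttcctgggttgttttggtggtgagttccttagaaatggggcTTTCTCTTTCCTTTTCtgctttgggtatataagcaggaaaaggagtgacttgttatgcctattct
Apol7b: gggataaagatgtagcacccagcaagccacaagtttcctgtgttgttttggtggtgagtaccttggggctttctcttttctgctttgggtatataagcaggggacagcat
Apol7c held 2 overlapping ISRE core matches, TTTCTCTTTC and TTTCCTTTTC, and the Apol7b window held none. Apol7e, with a promoter 96.1% identical to that of Apol7b, had no probe, and whether the Apol7b probe reads it was not tested.

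Apol6, whose human counterpart has been linked to cell death, and Apol7a gave no signal well above background. The Apol6 probe read 8.77 and 11.4, below the negative control spots, which averaged 11.5 and 14.9. The Apol7a probes read 19.5 and 43.7, and 11.5 and 13.4, in the order wild type and labelled-knockout. These signals have no order between arrays and no fold is given. Of the 12 Apol probes, 6 were well above background on both arrays, 1 on the wild-type array alone and 5 on neither, and none was marked as an outlier spot.

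**Figure D2:**
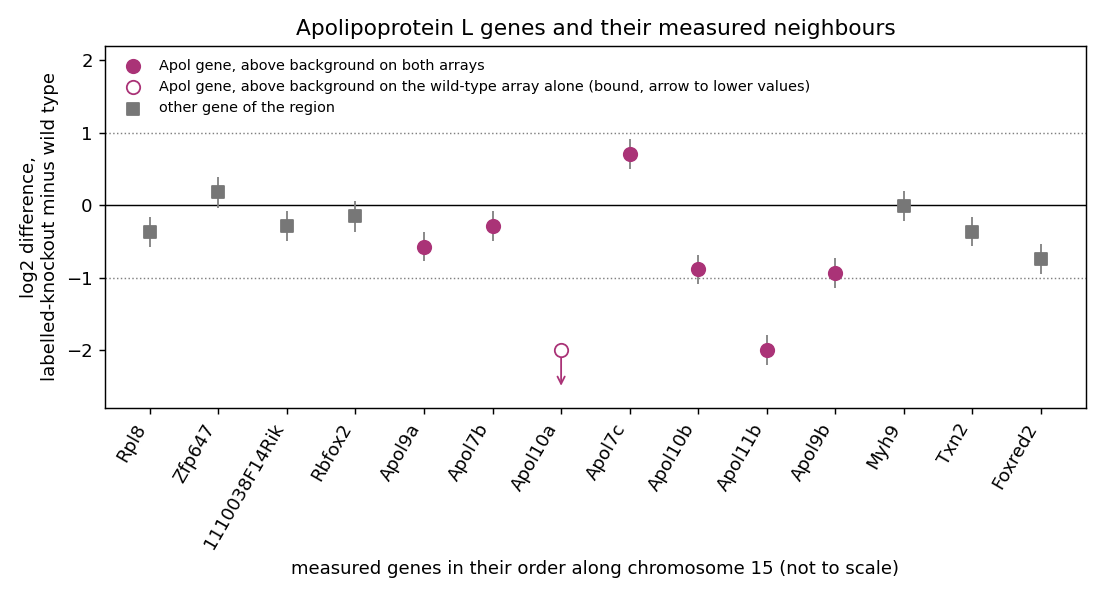
Log2 difference (labelled-knockout minus wild type) of the 7 measured Apol genes and of 7 measured neighbouring genes, in their order along chromosome 15 and not to scale. Bars are the software's error of the difference, dotted lines mark 2-fold, and the open circle with an arrow is the bound for Apol10a. Apol7c, at 0.70, sits between Apol10a and Apol10b, both below 0.

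The members did not differ by the same amount along the cluster. In the order of the reference assembly the measured genes ran Apol9a, Apol7b, Apol10a, Apol7c, Apol10b, Apol11b and Apol9b. Apol7c at 0.70 was flanked by Apol10a, lower by a nominal bound of 3.98-fold, and Apol10b at -0.89. Among the 6 genes above background on both arrays, Apol7c and Apol11b were the farthest apart, by 2.70 ± 0.29, a 6.52-fold contrast. Apol10b and Apol9b were closest, at 0.05 ± 0.29. The 7 measured neighbours outside the family ranged from -0.75 to 0.18. Myh9, the non-muscle myosin gene next to Apol8, was at -0.01 ± 0.20, and Txn2, for mitochondrial thioredoxin, at -0.36. Foxred2 was at -0.75. Rbfox2, a splicing factor gene that lies between Apol6 and the main cluster, was at -0.15. On the far side of Apol6, 1110038F14Rik was at -0.29, Zfp647 at 0.18 and the ribosomal protein gene Rpl8 at -0.37.

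**Figure D3:**
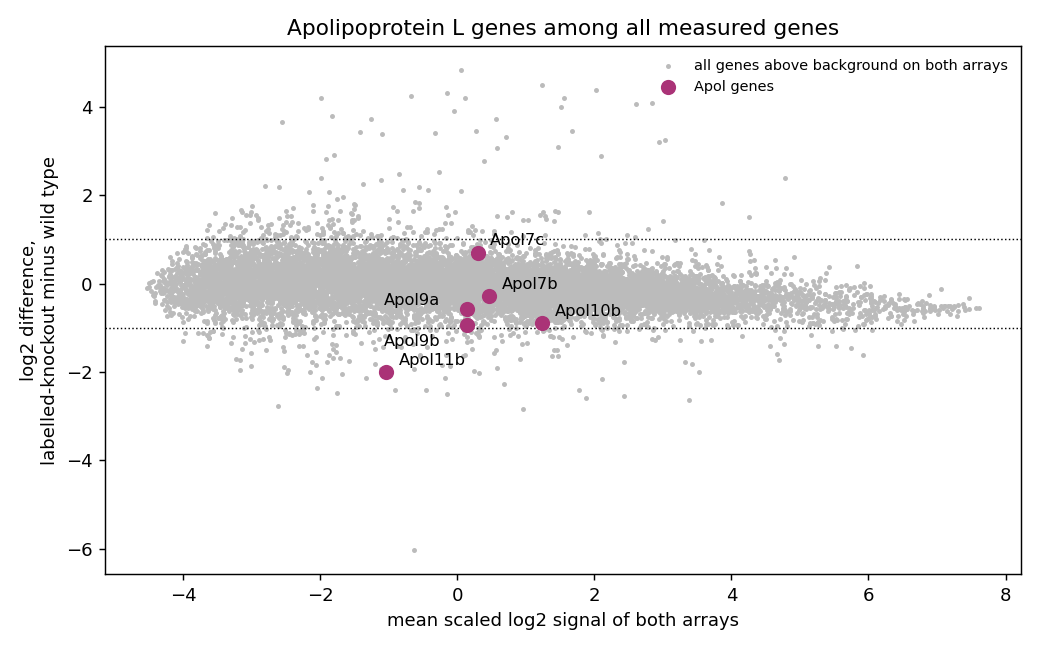
Log2 difference against the mean scaled log2 signal of both arrays for the 13034 genes above background on both (grey), with the 6 Apol genes among them in purple and 2-fold marked by dotted lines. Apol11b lies at the lower edge of the cloud at -2.001, and Apol7b, at -0.29, lies within it.

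ISRE core matches were frequent in the family's promoters. The RefSeq promoter table (GRCm38.p6) held 9 of the 10 members, all but Apol6. Of these 9, 6 had at least 1 ISRE core match on either strand, while 3.99% of the 27025 genes in the table did. The 6 include close copies, Apol9a with Apol9b and Apol10a with Apol11b, so they are not 6 separate observations. GAS matches were found in 2 of the 9 and in 9.55% of all genes. A match is a run of letters and not a measured binding site. All 6 members with an ISRE core match were measured, 5 of them below 0 and Apol7c above. The 417 other measured genes with a match had a median of -0.12, with 59.95% below 0, and the 10522 measured genes without one had a median of -0.10, with 59.9% below 0.

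**Figure D4:**
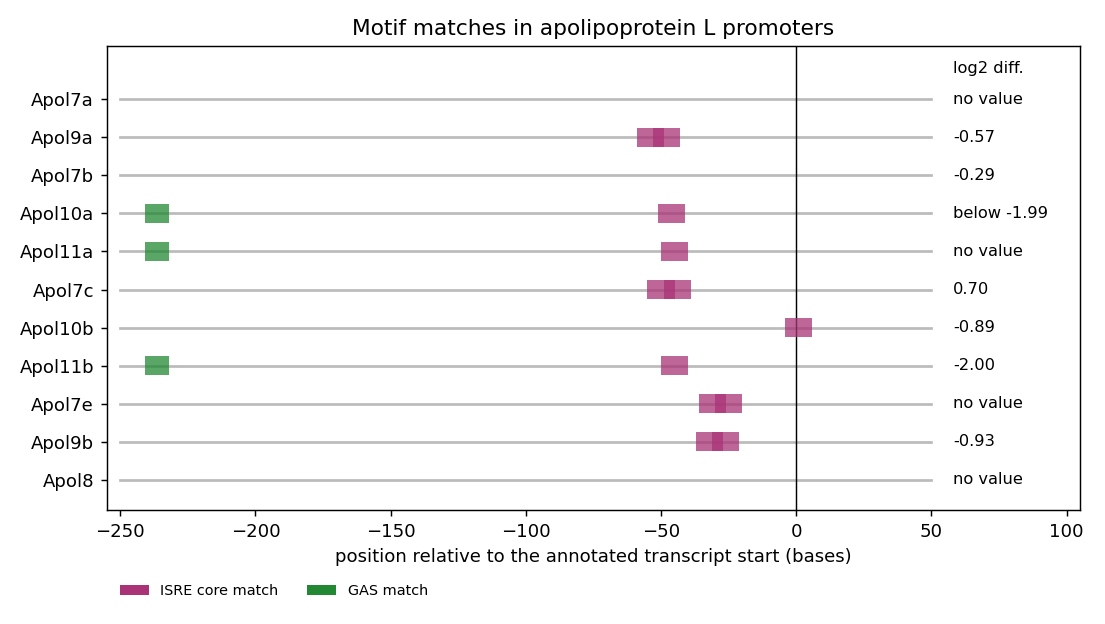
Positions of ISRE core matches (purple) and GAS matches (green) in the 300-base promoter windows of 11 Apol genes, relative to the annotated start, with each gene's log2 difference at the right (for Apol10a its bound). Apol9a, Apol9b and Apol7c each hold 2 overlapping ISRE core matches, and Apol7a, Apol7b and Apol8 hold none.

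Other interferon-regulated genes were set beside the family. Of 36 listed genes stimulated mainly by type I interferon, 30 were measured, 26 of them below 0 (86.7%, where 59.2% of all measured genes were), with a median of -0.57, which became -0.36 under quantile normalization and in the authors' deposited table. At least 2-fold lower were 3 (Oas2, Eif2ak2 and Oas1a) and at least 2-fold higher were 2 (Ifi44 and Ifi44l), where 2.26% and 2.57% of all genes were. Oas2, an oligoadenylate synthetase that activates RNA decay, was at -1.33 ± 0.20 and the double-stranded RNA kinase gene Eif2ak2 at -1.26 ± 0.21. Irf7, the transcription factor that amplifies the interferon response, was at 0.06 ± 0.23 and Ifi44 at 1.04 ± 0.21. Oas1a was at -1.01. Ifi44l, above background in the labelled knockout alone, was higher there by a nominal bound of 9.11-fold. Interferon-gamma-stimulated genes had a median of -0.35, with 17 of 21 (80.95%) below 0, 2 at least 2-fold lower and 0 at least 2-fold higher. That median became -0.15 with normexp background correction and -0.20 under quantile normalization, in the deposited table and with scaling on probes above background on both arrays. In that list the immunity-related GTPase genes Iigp1 and Irgm2 were at -1.49 and -1.06, with another Iigp1 probe at -0.59. The peptide transporter gene Tap1 was at 0.19 and Tgtp1 at 0.92. The Tgtp1 probe was dim, at 122 in wild type and 333 in the labelled knockout. Tgtp2 read 13748 and 11897 and went the other way, at -0.73. Tgtp1 and Tgtp2 are near-identical copies and their probes may share signal.

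Genes of interferon receptors and their signalling had a median of -0.29, with 11 of 14 (78.6%) below 0, against the same 59.2% of all genes, and 0 past 2-fold either way. The median became -0.10 under quantile normalization and in the authors' deposited table, and -0.14 with scaling on probes above background on both arrays. Irf9, the DNA-binding subunit of the factor that binds the ISRE, was at -0.76 ± 0.20 and Irf1 at -0.75 ± 0.20. Irf2 was at 0.04 and the receptor-associated kinase gene Tyk2 at 0.45. The genes of plasma apolipoproteins, which share a name but no sequence family with Apol, had a median of 0.02, with 7 of 15 measured and 0 past 2-fold. Apod was at -0.82 ± 0.20, Apoe at -0.35, Apoc1 at 0.19 and Apoa2 at 0.37. The shares of the interferon lists below 0 were not set against genes of like signal. All these lists were written with earlier results of these arrays known, and none was tested.

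**Figure D5:**
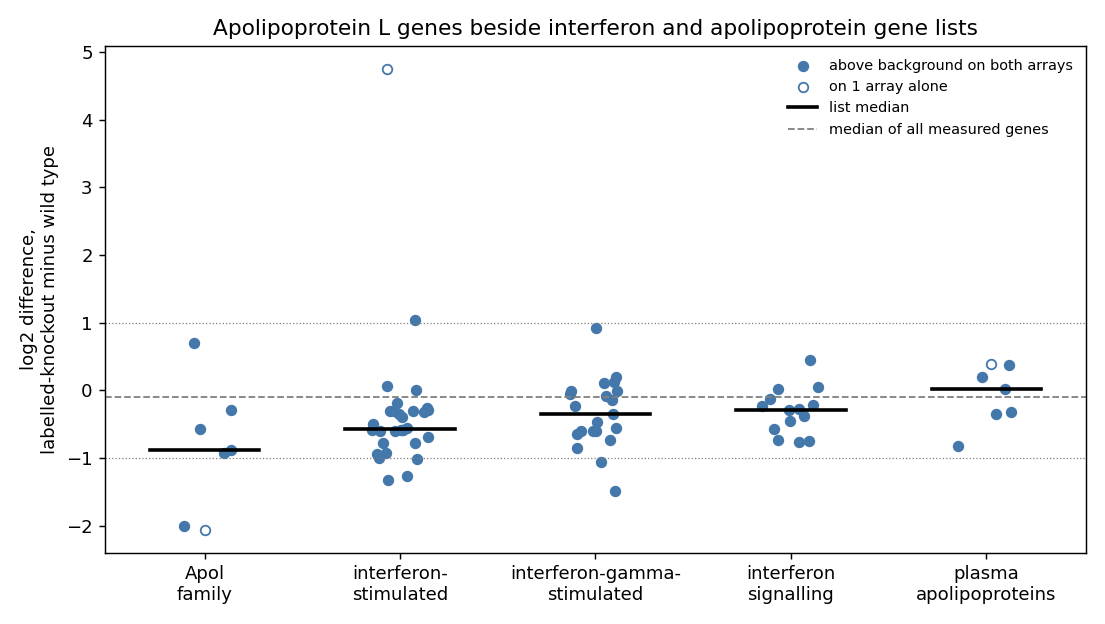
Log2 difference of each measured gene in the Apol family, in 3 interferon lists and among plasma apolipoproteins, with black bars at list medians, a dashed line at the median of all measured genes (-0.09) and dotted lines at 2-fold. Open circles mark genes above background on 1 array alone, drawn at the measured difference and not at a bound. Their true difference may be smaller or larger than drawn. The Apol median of -0.89 lies below the interferon-stimulated median of -0.57, and plasma apolipoproteins lie around 0.

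The arrays also differed in other cell type markers. Of 10 measured neutrophil markers, 9 were at least 2-fold lower on the labelled-knockout array, where 2.26% of all measured genes were. Their summed unscaled signal went from 196318 to 82436. Of 6 platelet markers, 5 were at least 2-fold lower, from 45768 to 19307 in sum. All 16 pancreatic acinar markers were at least 2-fold higher, where 2.57% of all measured genes were, from 8779 to 190550 in sum. After scaling, the neutrophil, platelet and acinar sums were 0.292, 0.294 and 15.1 times those of wild type. The part of neutrophils, platelets and acinar cells in the Apol values was not tested. Markers of the cells that make up most of the spleen were above background on both arrays, with 10 of 10 B cell, 9 of 9 T cell and 12 of 12 macrophage genes, and their medians were 0.10, -0.06 and -0.06. Their unscaled sums went from 163780 to 191341, from 48885 to 63952 and from 162064 to 213441. After scaling these sums were 0.813, 0.911 and 0.917 times those of wild type, against 0.80 times for all measured genes. Of 8 endothelial markers 7 were measured, 5 of them above 0 and 1 at least 2-fold lower, with a median of 0.40. Their unscaled sum went from 22265 to 36600, and after scaling it was 1.14 times that of wild type. The labelled knockout was the higher array for 53.2% of genes past 2-fold. This share was 41.2% when arrays were scaled on their median and 70.9% when scaled on probes above background on both.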

How the data were processed

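Mouse spleen RNA, wild type or Loxl3 knockout per the labels, was measured on 1 one-colour array per group. The scanner files as deposited give each spot's intensity on a linear scale, made with Feature Extraction 11.0.1.1 (protocol GE1_1100_Jul11, build mm9), per the file headers. The authors' deposited table of log2 values has equal quantiles in both columns, and its steps are not given in the sources used here. Spots marked as outliers were left out, log2 processed signals were averaged per probe, and each array's 75th percentile was subtracted. Probes were named by accession through RefSeq (GRCm38.p6), which matched 27226 of 39420 probes. That assembly differs from the array's build, so its coordinates are given for promoter sequences alone. For each gene the brightest probe well above background on either array was used. Where only 1 array was above background, a bound was taken, the bright scaled signal over the dim one or over the lowest scaled signal called above background, whichever is higher. The bound is nominal, since it leaves out spot error and the background call varies between spots. For 268 probes printed 10 times, the log2 difference had a median SD of 0.112 over spots, while each Apol probe was printed once. The number of arrays limits the precision. Calculations used Python 3.11.15 and, for normexp (offset 50, on median spot signals in place of the planned mean signals), limma 3.58.1 in R 4.3.3, and were tested on simulated data. All member probes were named, and from each other list the 2 highest and 2 lowest genes above background on both arrays. From the cell type marker lists, counts and sums are given in place of those genes. Xcr1, the other dendritic cell markers, Oas1a, Ifi44l and Tgtp2 were named after their values were seen. The members, lists and motifs were chosen with earlier results of these data known.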

Additional observations from a re-analysis of the deposited data

How the results depend on the processing

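Across 9 settings, the reported one included, no measured Apol gene changed sign. Some of these settings could hardly move a member. Each measured Apol gene had 1 probe above background, and no Apol spot was marked as an outlier. The deposited table gave nearly the same values as quantile normalization. Without scaling, which was not among the settings, the log2 ratio of Apol7b was above 0, at 0.24. Apol11b ranged from -2.10 to -1.69, Apol10b from -0.98 to -0.74, Apol9b from -1.03 to -0.79, Apol9a from -0.67 to -0.43, Apol7b from -0.38 to -0.14 and Apol7c from 0.61 to 0.85. Apol10a, in the 8 settings that keep it, ranged from -2.15 to -1.09. The family median ranged from -0.98 to -0.73. The number of Apol genes at least 2-fold lower was 2 in most settings and 3 when arrays were scaled on their median. It was 1 with genes above background on both arrays alone, a filter that leaves out Apol10a by construction. Among all measured genes, 310 of 13716 were at least 2-fold lower as reported and 418 of 13716 with median scaling. With the filter on both arrays, 234 of 13036 were. With normexp background correction 151 genes were at least 2-fold higher and 186 lower, against 352 and 310 as reported, and Apol10a and Apol11b were at -1.09 and -1.69. Scaling on probes above background on both arrays moved the median of all genes from -0.09 to 0.05. No paired analysis was possible because each group has 1 array. No array could be left out for the same reason. Signal over background limits Apol6, Apol7a and the labelled-knockout value of Apol10a, none of them well above background.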

Other observations

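Promoters with 2 overlapping ISRE core matches on either strand (GAAA 3 times, with any 2 bases between) were counted after the Apol9a, Apol9b and Apol7c sequences had been seen. Such a run occurred in 0.133% of the 27025 genes in the promoter table, 36 genes, among them the members Apol9a, Apol9b and Apol7c and the unprobed Apol7e. Of the 36, 19 measured genes were not Apol genes, and 14 of those (73.7%) were below 0, with a median of -0.37, against 59.9% below 0 and a median of -0.10 for the 10923 measured genes without such a run. Of the members with it, Apol9a and Apol9b were below 0 and Apol7c above.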
